A study of Mus musculus with 5 samples.

Results

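The small proline-rich genes *Sprr1a*, *Sprr1b*, *Sprr2a1*, *Sprr2a2* and *Sprr2a3* were followed in mouse colon tumors under chemotherapy and in normal colon. Of 6 *Sprr* genes named for this description, these 5 were counted, out of 23176 genes listed in the tables, and *Sprr3* was not analysed here. The genes were chosen by their raw unique molecular identifier (UMI) counts in squamous cells, in columnar cells at day 6 and day 1 and in surface colonocytes of normal colon. Levels in those groups are therefore given as a description without a test.

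The tumors came from wild type mice and were induced with azoxymethane and dextran sodium sulfate (AOM/DSS), a model in which a carcinogen acts on an inflamed colon. Mice were treated with 5FU+Irinotecan, and tumors were taken at day 1 (2 libraries, replicates 1 and 2), day 3 (1 library) and day 6 (1 library). All 4 treated libraries therefore carry both the tumor induction and the drugs, and no untreated tumor is among them. The fifth library was from normal colon of an untreated wild type mouse, dissociated for fibroblasts after most of the epithelium had been stripped off, so its columnar cells are those that remained. Tumor digests were enriched for epithelial fragments on a filter, which the normal colon was not. Mice were on a C57BL/6J or a mixed C57BL/6J and 129 background, and the labels give neither their age nor whether each library was an animal of its own. The study gives the age only as a range at the start of experiments and treats the early and the late libraries as biological replicates.

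Sprr proteins are short, proline-rich precursors of the cornified envelope, the protein shell under the membrane of mature squamous cells. Transglutaminases cross-link them to each other and to partners such as involucrin and loricrin. Their genes lie side by side in the epidermal differentiation complex on chromosome 3. *Sprr1a* and *Sprr1b* are best known from stratified epithelium and from stressed or regenerating tissue, while *Sprr2a* is also made by gut epithelium after contact with microbes or after injury.

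On GRCm38.p6, the 6 named genes span chr3:92215835-92485881. *Sprr2a1* (chr3:92215835-92222491), *Sprr2a2* (chr3:92250647-92257304) and *Sprr2a3* (chr3:92285304-92289264) are on the plus strand at one end of the array. *Sprr1b* (chr3:92436808-92438817) and *Sprr1a* (chr3:92483954-92485881) are on the minus strand at the other end, with *Sprr2b*, *Sprr2d* to *Sprr2i*, *Sprr2j-ps* and *Sprr2k* between them. The 250 bases before an annotated RefSeq start are shown for *Sprr1a*, *Sprr1b* and *Sprr2a1*, whose levels went in opposite directions between the epithelial classes. They are also shown for *Sprr2d*, a neighbor outside the named genes with the direction of *Sprr1a*. The *Sprr1b* window overlaps the gene span given above, which ends at 92438817, so it was not cut at the start of that span. Capitals mark matches on either strand to AP-1 (TGANTCA), an octamer (ATTTGCAT), a STAT motif (TTCNNNGAA) or a TATA box (TATAAA).
Sprr1a, chr3:92485882-92486131, minus strand: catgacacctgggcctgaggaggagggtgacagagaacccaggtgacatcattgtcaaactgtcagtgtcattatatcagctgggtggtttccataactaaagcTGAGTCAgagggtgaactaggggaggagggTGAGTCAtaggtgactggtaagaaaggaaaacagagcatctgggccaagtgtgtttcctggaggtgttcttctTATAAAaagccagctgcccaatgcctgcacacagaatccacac
Sprr1b, chr3:92438780-92439029, minus strand: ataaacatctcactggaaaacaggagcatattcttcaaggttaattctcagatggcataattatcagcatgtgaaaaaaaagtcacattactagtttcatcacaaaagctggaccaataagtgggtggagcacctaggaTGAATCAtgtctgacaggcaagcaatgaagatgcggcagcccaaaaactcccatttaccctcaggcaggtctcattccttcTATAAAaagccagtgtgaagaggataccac
Sprr2a1, chr3:92215585-92215834, plus strand: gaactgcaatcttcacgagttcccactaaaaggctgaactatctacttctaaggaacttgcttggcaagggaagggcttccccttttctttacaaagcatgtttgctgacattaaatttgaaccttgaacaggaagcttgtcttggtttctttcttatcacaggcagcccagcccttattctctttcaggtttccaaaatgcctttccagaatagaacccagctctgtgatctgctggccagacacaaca
Sprr2d, chr3:92338890-92339139, plus strand: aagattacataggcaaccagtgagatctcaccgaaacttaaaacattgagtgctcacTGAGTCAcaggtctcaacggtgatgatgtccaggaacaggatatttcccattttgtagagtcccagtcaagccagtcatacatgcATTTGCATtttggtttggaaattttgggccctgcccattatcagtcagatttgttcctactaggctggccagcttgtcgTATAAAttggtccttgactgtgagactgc
The *Sprr1a* window held AP-1 matches at 146 to 140 and at 116 to 110 bases before the start, and a TATA match 43 to 38 bases before it. The *Sprr1b* window held 1 AP-1 match (111 to 105 bases before the end of the printed window) and 1 TATA match (30 to 25 bases). Part of this window lies inside the gene span given above. The *Sprr2d* window held AP-1 (193 to 187 bases), octamer (108 to 101 bases) and TATA (29 to 24 bases) matches, and these letters were not found in the *Sprr2a1* window. Over the 14 *Sprr* promoters of the RefSeq table, 9 held the AP-1 letters, 7 the octamer, 1 the STAT motif and 10 the TATA box, against 6.87%, 1.61%, 7.18% and 13.0% of all 27025 promoters. These are letter matches only, and the motif positions depend on the annotated start.

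*Sprr2a1*, *Sprr2a2* and *Sprr2a3* are close copies, which sets how their counts can be read. The promoter windows (250 bases before and 50 after the start) of *Sprr2a1* and *Sprr2a2* matched at 300 of 300 bases. Their GENCODE transcripts were 99.9% identical, and the last 400 bases, which 3' end counting reads, matched at 400 of 400. *Sprr2a3* shared 98.9% of the *Sprr2a1* transcript and 397 of 399 bases of its end. How reads that map to several copies were assigned is not given in the sources used here, so levels are given for the sum of the 3 genes, called *Sprr2a*, and the single genes are uncertain. *Sprr1a* and *Sprr1b* transcripts were 74.9% identical.

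After keeping cells with at least 500 genes and at most 15% mitochondrial counts, 748, 2403, 1419 and 2826 cells remained at day 1 replicate 1, day 1 replicate 2, day 3 and day 6, and 1095 in normal colon. Library totals were 5132360 to 16904947 UMIs and medians per cell 2903 to 3601. A single index structure was used for the first day 1 replicate and for day 3, and a dual index structure for the rest, so each later day is tied to 1 library type. Across libraries, 159 barcodes were found more than once. Cell classes were named from RNA markers alone and are to be read as squamous-like, columnar-like and so on, with 38, 182, 149 and 585 squamous cells and 505, 1409, 611 and 709 columnar cells in the 4 treated libraries in the order above. In every treated library all 10 squamous markers (among them *Krt5*, *Krt14* and *Trp63*) were higher in squamous cells and all 10 counted columnar markers, of 12 named, were higher in columnar cells. Columnar cells include goblet-like and Paneth-like clusters, and 31, 79, 502 and 861 cells stayed unnamed.

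*Sprr* genes were abundant in the tumors. All *Sprr* genes together took 1.57% and 1.30% of the UMIs of kept cells in the day 1 libraries, 3.03% at day 3, 3.68% at day 6 and 0.711% in normal colon. *Sprr2a* made up 96.6% to 99.8% of these *Sprr* UMIs in each library, as a share of 3' end counts not divided by length. The day 3 and day 6 libraries were both above the day 1 libraries, and normal colon was lowest. These shares depend on which cells a library holds, and 698 of the 1095 kept cells of normal colon were non-epithelial. Levels by cell class are given below.

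*Sprr2a* was higher in columnar than in squamous cells of every treated library. Its level in columnar cells was 17683 and 14549 CPM (the gene's UMIs scaled by the class total to a common size) at day 1, 31743 at day 3 and 53801 at day 6. In squamous cells of the same libraries it was 7940, 5475, 21598 and 15123 CPM. Squamous cells were the lower class within each library, although the 2 ranges overlapped between libraries. On the log2(CPM + 20) scale the within-library difference, squamous minus columnar, was −1.15, −1.41, −0.56 and −1.83, with a mean of −1.24 ± 0.53 (SD, n = 4 libraries). Each copy went the same way, with mean differences of −1.18 ± 0.51 for *Sprr2a1*, −1.29 ± 0.53 for *Sprr2a2* and −1.45 ± 0.71 for *Sprr2a3* (SD, n = 4).

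**Figure D1:**
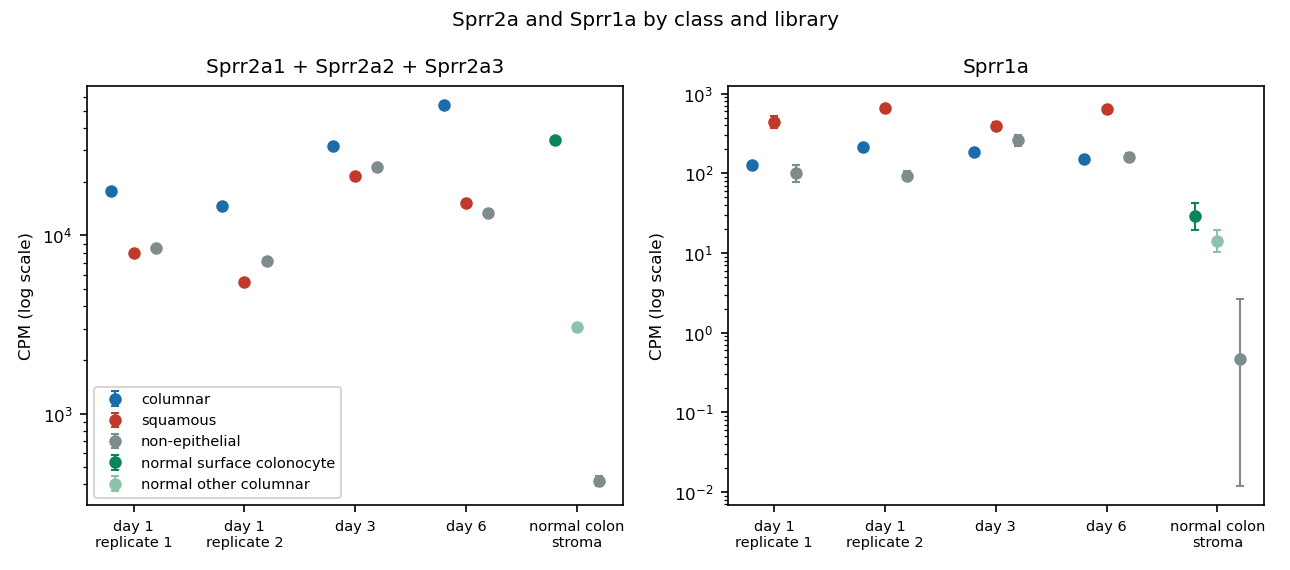
Levels of *Sprr2a* (left) and *Sprr1a* (right) in CPM on a log scale, for each library on the x axis and each cell class by color, with exact Poisson 95% intervals of the counts. *Sprr2a* is highest in columnar cells of each treated library (53801 CPM at day 6) while *Sprr1a* is highest in squamous cells (394 to 668 CPM).

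*Sprr1a* had the opposite order. Squamous cells held 440.0, 668, 394 and 647 CPM of *Sprr1a* in the order day 1 replicate 1, day 1 replicate 2, day 3 and day 6. Columnar cells held 127, 212, 186 and 151 CPM. The 2 classes did not overlap over the 4 libraries, and the within-library difference was 1.65, 1.57, 1.01 and 1.96, with a mean of 1.55 ± 0.40 (SD, n = 4). When every cell was thinned to 1000 UMIs, so that deep and shallow cells weigh alike, the mean difference was 0.90. Much of the excess, though least at day 3, lay in 1 squamous cluster led by *Ltf*, *Psca*, *Krt6b*, *Krt13* and *Krt4*, called suprabasal here after its keratins, which had 7, 14, 3 and 237 cells in the 4 libraries and held 66.7%, 79.6%, 28.9% and 90.5% of the squamous *Sprr1a* UMIs. Without this cluster the difference was 0.48, −0.21, 0.59 and −0.28, with a mean of 0.15 ± 0.45 (SD, n = 4) in this alternative chosen after seeing the data, so the other squamous cells had no common direction against columnar cells.

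*Sprr1b*, the close relative of *Sprr1a*, was rare. Squamous cells held 39 and 15 *Sprr1b* UMIs at day 1, 4 at day 3 and 3 at day 6, or 117, 14.7, 6.50 and 0.689 CPM. Columnar cells held 2, 6, 2 and 0 UMIs, and the 0 at day 6 has an exact Poisson upper bound of 0.463 CPM. The day 1 replicate 1 value rested on 1 squamous cell, which carried 37 of the 39 UMIs. That cell, with 16201 UMIs in all, also held 51 *Sprr1a*, 82 *Krt13* and 130 *Krt5* UMIs. In normal colon *Sprr1b* has no row in the table.

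As background for these counts, 14.2% of 12359 genes with at least 100 counts were higher in squamous than in columnar cells in all 4 libraries and 25.5% were lower in all 4. Of the 4 named genes that reach 100 counts, *Sprr1a* was higher in all 4 libraries and the 3 *Sprr2a* genes were lower in all 4. Since the contrast was used to choose them, nothing is read from these shares. *Sprr1b* had fewer than 100 counts and was also higher in squamous cells in all 4 libraries.

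Cells of types not known to make Sprr proteins also carried these UMIs, and their level is set beside each class. Non-epithelial cells (neutrophil-like, macrophage-like, T cell-like, plasma-like, endothelial-like and fibroblast-like clusters) held 8515, 7220, 24124 and 13357 CPM of *Sprr2a* in the 4 treated libraries and 419 CPM in normal colon. Squamous cells differed from these by −0.10, −0.40, −0.16 and 0.18 on the log2 scale, and were thus below the non-epithelial level in 3 libraries and slightly above it at day 6 (15123 against 13357 CPM). Columnar cells lay above the non-epithelial level by 1.05, 1.01, 0.40 and 2.01. *Sprr2a* in squamous cells was 44.9%, 37.6%, 68.0% and 28.1% of the columnar level, where the median over the 10 columnar markers was 26.0%, 31.8%, 46.6% and 22.7%. In non-epithelial cells *Sprr2a* was 48.2%, 49.6%, 76.0% and 24.8% of the columnar level, and the markers' median was 45.9%, 40.0%, 66.6% and 29.9%. The part of free RNA in the squamous and columnar values was not tested beyond these levels.

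*Sprr1a* stood differently against the non-epithelial cells. Its non-epithelial level was 99.6, 93.1, 260.2 and 162 CPM. Squamous cells lay above it by 1.94 and 2.60 at day 1, by 0.56 at day 3 and by 1.87 at day 6, and the day 3 gap was the narrowest. Columnar cells lay above it at day 1, by 0.30 and 1.04, but not at day 3 (−0.45) or day 6 (−0.10). Of the 166 non-epithelial *Sprr1a* UMIs at day 3, 64 were in 1 cell and 8 in the next highest. Both day 3 gaps thus rest in part on 1 cell. Read at 1000 UMIs per cell, a *Sprr1a* UMI was found in 21.1%, 19.2%, 17.4% and 23.4% of squamous cells, 10.3%, 12.6%, 15.9% and 16.1% of columnar cells and 9.82%, 10.8%, 11.5% and 16.4% of non-epithelial cells. Without thinning the shares were 47.4%, 37.9%, 38.3% and 57.4% in squamous cells and 29.1%, 39.2%, 48.3% and 60.6% in columnar cells. The thinned columnar share at day 6 was thus no higher than the non-epithelial share, at median depths of 9312 UMIs for columnar and 2425 for non-epithelial cells.

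*Sprr1a* UMIs were held by few cells in each class. The 10% of squamous cells with the most held 72.1%, 89.3%, 76.4% and 76.0% of the squamous UMIs in the 4 libraries. The same share was 78.9%, 81.4%, 56.7% and 53.4% in columnar cells and 73.5%, 54.1%, 69.3% and 43.6% in non-epithelial cells. At day 6, 336 of 585 squamous cells had at least 1 *Sprr1a* UMI and the highest had 132, while the median cell at 1000 UMIs had 0. *Sprr2a* was spread over nearly all cells, and at 1000 UMIs 97.0% to 100% of columnar and 97.3% to 100% of squamous cells had at least 1 UMI, as had 98.6% to 100% of non-epithelial cells. Its median was 15, 8, 23 and 40 UMIs per 1000 in columnar cells, 7, 7, 20 and 11 in squamous cells and 10, 7, 21 and 15 in non-epithelial cells. The day 6 columnar cells had the widest range, with an interquartile range of 13 to 108 UMIs per 1000 and 321 in the highest cell.

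Within the columnar class *Sprr2a* followed the clusters. Its highest cluster level over its lowest was 7.21-fold and 11.5-fold in the day 1 libraries, 3.14-fold at day 3 and 4.70-fold at day 6. Its lowest level at day 1 was in a cluster led by *Wif1*, *Dkk2* and *Nkd1*, genes of WNT signaling, with 6325 CPM in replicate 1, 3144 CPM in replicate 2 and 14824 CPM at day 3, where it had 22 cells. The highest level was 106442 CPM, in 361 of the 709 columnar cells at day 6, a cluster led by *Ifit1bl1*, *Clca4b*, *Gbp2*, *Saa1*, *Ido1*, *Nos2* and *Duoxa2*, many of them induced by interferon or bacteria. The other large columnar cluster at day 6, with 281 cells and led by *Adh1*, *Gsdmc4* and *Selenbp1*, held 23908 CPM. Goblet-like cells, which make mucus, held 35706, 36160, 28918 and 22658 CPM, with the lowest value at day 6.

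The columnar cells of each library lay largely in clusters of their own. At day 1 replicate 1 they were mainly a Paneth-like cluster of 179 cells (33473 CPM of *Sprr2a*) and the WNT gene cluster of 152. At day 1 replicate 2 a cluster of 528 cells led by *F3* and *Cftr* (17030 CPM), a Paneth-like cluster of 381 cells (27629 CPM) and 372 cells of the WNT gene cluster made up most of the class. Day 3 was mainly 279 cells led by *Gpx2* and *Clu* (20752 CPM) and 232 cells led by *Gprc5a* and *Dmbt1* (46531 CPM). Levels between libraries thus compare different cells of 1 class, and library, day and cluster cannot be told apart.

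*Sprr1a* was ordered in another way over the columnar clusters. It was highest in the Paneth-like clusters of day 1, at 397 CPM in replicate 1 and 414 CPM in replicate 2, within the range of the squamous averages. The cluster with the highest *Sprr2a* at day 6 held 264 CPM of *Sprr1a*, and the WNT gene cluster held 49.0, 45.8 and 78.9 CPM at day 1 replicate 1, day 1 replicate 2 and day 3. The goblet-like cells held 81.9 to 132 CPM.

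**Figure D2:**
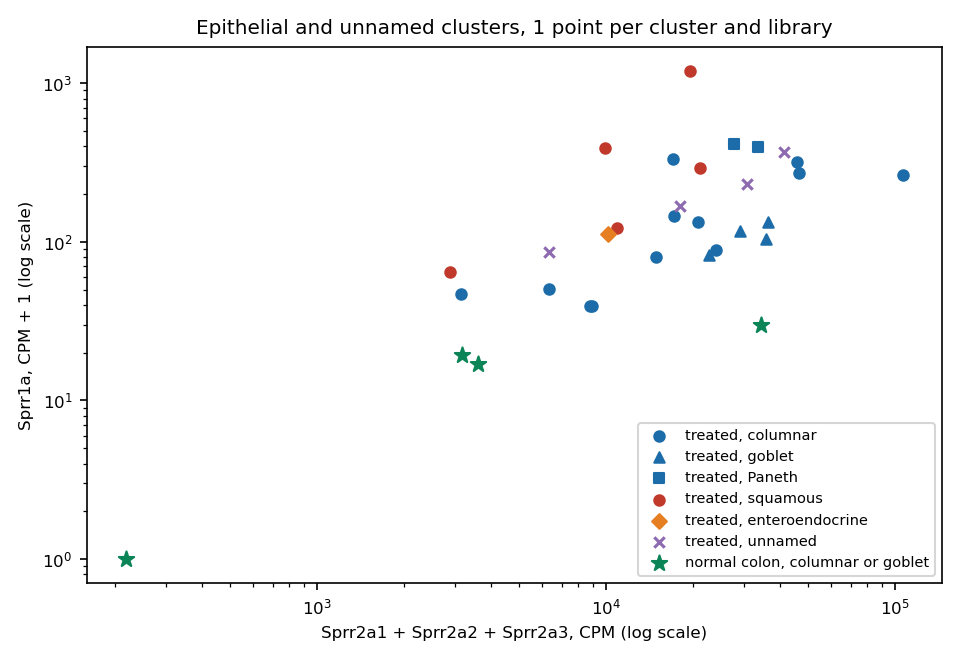
*Sprr1a* (CPM + 1, y axis) against *Sprr2a* (CPM, x axis), both on log scales, with 1 point for each epithelial or unnamed cluster in each library where it had 20 or more cells. The squamous suprabasal cluster at day 6 is highest for *Sprr1a* (1186 CPM), a columnar cluster at day 6 is highest for *Sprr2a* (106442 CPM), and normal columnar clusters lie lowest for *Sprr1a*.

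In squamous cells *Sprr1a* was highest in clusters that held suprabasal keratins. At day 6, 347 squamous cells formed a cluster led by the basal genes *Trp63*, *Col17a1*, *Krt17* and *Krt14*, with 121 CPM of *Sprr1a*, and the 237 cells of the suprabasal cluster held 1186 CPM. Their *Sprr2a* levels were 10856 and 19498 CPM, on either side of the non-epithelial 13357 CPM of that library. The basal cluster of day 1 replicate 2 (49 cells) held 63.1 CPM of *Sprr1a*, and 119 cells of the same library led by *Krt16*, *Krt17* and *Krt6a* held 388 CPM. These clusters held 31 and 108 of the 681 squamous *Sprr1a* UMIs of that library, and the 14 suprabasal cells held 542 (2170.1 CPM). At day 3, 145 of the squamous cells fell in 1 cluster with 289.8 CPM, and 3 suprabasal cells held 70 of the 242 UMIs (3656 CPM). At day 1 replicate 1 the 7 suprabasal cells held 98 of 147 UMIs (1409 CPM). The suprabasal cluster was the highest for *Sprr1a* in every library, on few cells in 3 of them. Its name rests on leading genes over all libraries, and day 6 gave 237 of its 261 cells. Its day 1 cells with the most *Sprr1b* held more *Krt5* than *Krt13* UMIs, as 282 and 54 in 1 cell of replicate 2. Without this cluster *Sprr2a* stayed lower in squamous than in columnar cells in all 4 libraries, with a mean difference of −1.41 ± 0.70 (SD, n = 4). The list genes and *Sprr* genes were left out when cells were clustered.

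The same was seen cell by cell, as a description over cells of 1 library that share depth and free RNA. Squamous cells were binned by their summed UMIs of *Krt13*, *Krt4* and *Krt6b*, a sum chosen after the leading genes of the clusters were seen, with each cell thinned to 1000 UMIs. At day 6 *Sprr1a* averaged 0.195 UMIs per cell in the 82 cells with none of these keratins and 1.64 in the 97 cells with 16 or more. At day 1 replicate 2 it averaged 0.105 in 95 cells and 2.24 in 17 cells, and at day 3 it averaged 0.227 in 22 cells and 1.65 in 20 cells. Day 1 replicate 1 had 12 cells with none (0.167) and 4 with 16 or more (1.25). Spearman's rho over cells between the keratin sum and *Sprr1a* was 0.29, 0.38, 0.19 and 0.39, and for *Sprr2a* it was 0.13, 0.06, 0.20 and 0.25. All 4 libraries thus had more *Sprr1a* in cells with more suprabasal keratin.

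*Sprr2a* had its gradient in columnar cells. Cells were binned by their summed UMIs of 10 surface colonocyte markers, genes of the absorptive cells at the mouth of the crypt. The markers were *Krt20*, *Aqp8*, *Car4*, *Slc26a3*, *Clca4a*, *Guca2a*, *Guca2b*, *Lypd8*, *Ceacam20* and *Muc3*. How much each marker added to the sum was not examined. The day 6 cluster with the most *Sprr2a* held little *Aqp8*, *Car4* or *Slc26a3*, as given below. From no marker UMI to 16 or more, *Sprr2a* went from 7.86 to 63.8 UMIs per 1000 at day 1 replicate 1, from 5.34 to 45.6 at day 1 replicate 2 and from 17.8 to 55.0 at day 3. At day 6, where 9 cells had under 2 marker UMIs, it went from 9.07 in 27 cells with 2 or 3 to 87.0 in 483 cells with 16 or more. Normal columnar cells went from 1.70 to 33.2. The bin with 16 or more was the highest in all 5 libraries, with rho over cells of 0.60, 0.53, 0.45, 0.72 and 0.80, whereas for *Sprr1a* rho was 0.07 to 0.24.

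**Figure D3:**
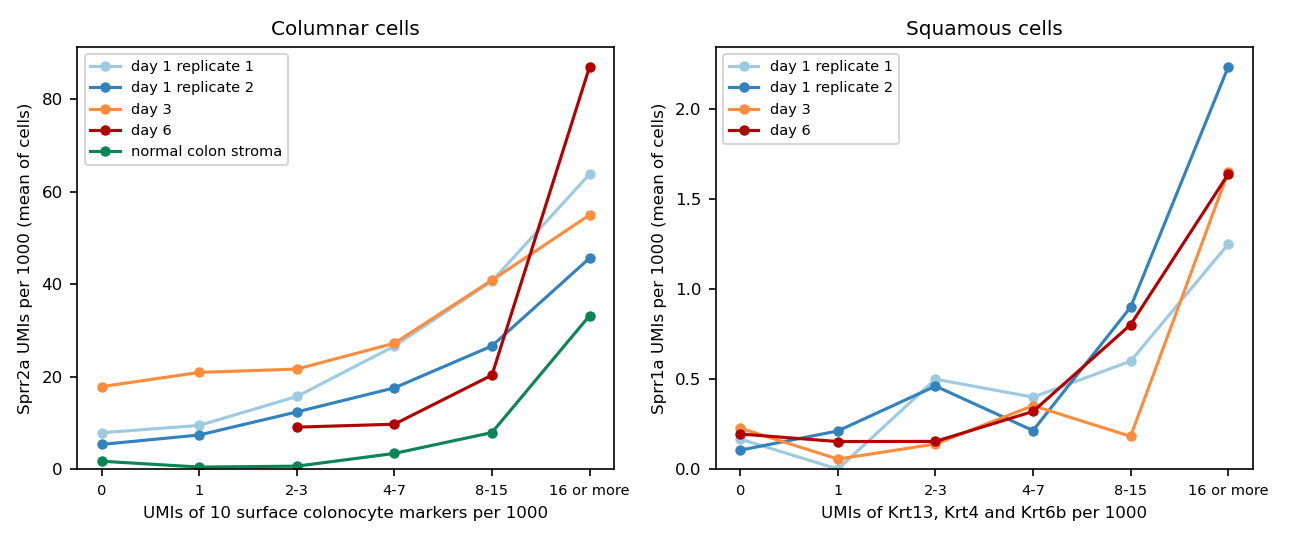
Left, mean *Sprr2a* UMIs per 1000 UMIs in columnar cells binned by surface colonocyte marker UMIs; right, mean *Sprr1a* UMIs per 1000 in squamous cells binned by *Krt13*, *Krt4* and *Krt6b* UMIs, with a line for each library and, on the left, bins of 20 or more cells. *Sprr2a* ends at 33.2 to 87.0 in the highest bin, and *Sprr1a* is highest in the last bin of each library drawn (1.64 to 2.24 where 17 or more cells were binned).

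Normal colon gave the level in healthy epithelium. The surface colonocytes, 142 cells in a cluster led by *Saa1*, *Aqp8*, *Car4* and *Slc26a3*, held 34338 CPM of *Sprr2a* (31907 UMIs, exact Poisson 95% interval 33962 to 34716 CPM). The other 255 normal columnar cells held 3044 CPM and the non-epithelial cells 419 CPM. *Sprr2a* was thus 11.3-fold higher at the surface than in the other columnar cells of the same library, and its non-epithelial level was far lower than in the tumor libraries. *Sprr1a* had 27 UMIs in surface colonocytes (29.1 CPM), 39 in other columnar cells (14.3 CPM) and 1 in non-epithelial cells (0.468 CPM).

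Day 6 columnar cells as a whole held 1.57-fold the *Sprr2a* of surface colonocytes, with 53801 against 34338 CPM. By copy the fold was 2.02 for *Sprr2a1*, 1.36 for *Sprr2a2* and 0.787 for *Sprr2a3*, so the copies parted in direction. Day 1 columnar cells, at 17683 and 14549 CPM, lay below the surface colonocytes but above the other normal columnar cells (3044 CPM). These comparisons set the whole tumor columnar class, with goblet-like and Paneth-like cells, against only a part of the normal columnar cells. For *Sprr1a* the day 6 columnar level of 151 CPM was 5.19-fold the surface level of 29.1 CPM, but the non-epithelial level also differed between the libraries, at 162 CPM for day 6 and 0.468 CPM for normal colon. With the non-epithelial level subtracted, the log2 difference of *Sprr1a* was −1.28 in place of a higher value at day 6. The day 6 level lay below the non-epithelial one and left nothing after subtraction. With 1 library each and different dissociations, library and condition cannot be told apart, and the intervals cover counting error only.

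The day 6 cells with the most *Sprr2a* differed from normal surface colonocytes in other genes, given here as levels of 1 library each without a test. The cluster with 106442 CPM held 2797 CPM of *Krt20*, a keratin of mature colonocytes, against 888 CPM in the normal surface cluster. It held 33.2 CPM of the water channel gene *Aqp8*, 106 CPM of the carbonic anhydrase gene *Car4* and 58.7 CPM of the chloride exchanger gene *Slc26a3*, where the normal surface cluster held 682, 746 and 1740 CPM. *Nos2* (503 CPM) and *Duoxa2* (630 CPM), genes for making nitric oxide and hydrogen peroxide, were at 2.15 and 1.08 CPM in the normal surface cluster, and the acute phase gene *Saa1* was at 3093 and 4034 CPM.

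Over time, columnar *Sprr2a* was higher late, again as a description. The mean of day 3 and day 6 minus that of day 1 was 1.36 on the log2 scale, with a pooled SD of 0.41. Within single index libraries, day 3 minus day 1 was 0.84, and within dual index libraries, day 6 minus day 1 was 1.89. The non-epithelial level rose too, from 8515 to 24124 CPM in the single index pair and from 7220 to 13357 CPM in the dual index pair. Columnar cells lay above it by 1.05 at day 1 and 0.40 at day 3 in the single index pair, so the gap narrowed there. In the dual index pair the gap went from 1.01 at day 1 to 2.01 at day 6. *Sprr1a* in columnar cells had a difference of 0.02, made up of 0.48 in the single index pair and −0.44 in the dual index pair. Of 12359 genes, 11.7% had both late libraries above both day 1 libraries in columnar cells and 39.9% had both below. Of the 4 named genes counted there, *Sprr2a1* and *Sprr2a2* were above and none was below.

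The change over time within squamous cells was not among the splits that chose the genes and was tested, but the counts of these same cells entered the choice, so the p-values are not independent of it. *Sprr2a* held 7940 and 5475 CPM at day 1, 21598 at day 3 and 15123 at day 6, so the late libraries were both above the day 1 libraries, as they were for 13.1% of genes, with 19.0% below. All 3 *Sprr2a* genes were in the first group. In the edgeR quasi-likelihood test, late minus early was 1.72 (SE 0.69) for *Sprr2a1*, 1.38 (SE 0.62) for *Sprr2a2* and 1.43 (SE 0.57) for *Sprr2a3*, with unadjusted p of 0.0350, 0.0536 and 0.0356 and an adjusted p of 1.00 for each. None passed the test, and the non-epithelial *Sprr2a* of the same libraries was ordered alike. *Sprr1a*, with 440.0 and 668 CPM at day 1 and 394 and 647 CPM late, had a log2 difference of 0.01 (SE 0.56). *Sprr1b* had a difference of −4.76 (SE 1.28, unadjusted p 0.00499, adjusted p 1.00), and 37 of its UMIs were in 1 cell of day 1 replicate 1. Without that library it was −2.50 (adjusted p 1.00), and without that cell alone *Sprr1b* fell below the filter on low counts and could not be tested. Its adjusted p was 0.0487 with DESeq2 and, in edgeR, 0.0415 with library structure as a block, 8.84e-06 without the filter on low counts, 0.0308 without day 1 replicate 2, 0.0327 without day 3 and 0.339 without day 6, and that cell is in each of these fits. These p-values measure the spread between these 4 libraries, which the labels do not tie to separate animals.

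Over all genes, edgeR called 0 of 9003 in squamous cells (0%), with 323 at an unadjusted p under 0.05, and DESeq2 called 17. In columnar cells edgeR called 0 of 13299 (0%), with 1816 at an unadjusted p under 0.05, and DESeq2 called 461. Counts were also simulated with a log2 change of 2. EdgeR called 158 of 175 changed genes for squamous cells and 188 of 197 for columnar cells. It also called 3 and 13 unchanged genes. Whether the simulated counts spread as widely as these libraries was not tested. They therefore do not show which changes could have been found here.

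The split of UMIs between the near-identical copies moved between libraries. *Sprr2a1* took 59.4% and 54.9% of *Sprr2a* UMIs at day 1, 69.5% at day 3, 54.9% at day 6 and 41.9% in normal colon. *Sprr2a3* took 2.79% and 1.71% in the single index libraries (day 1 replicate 1 and day 3), 5.74% and 5.80% in the dual index libraries of treated tumors and 12.3% in normal colon. The shares thus followed the library type among the tumors. Whether copies differ in transcription or in how reads were assigned was not tested.

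**Figure D4:**
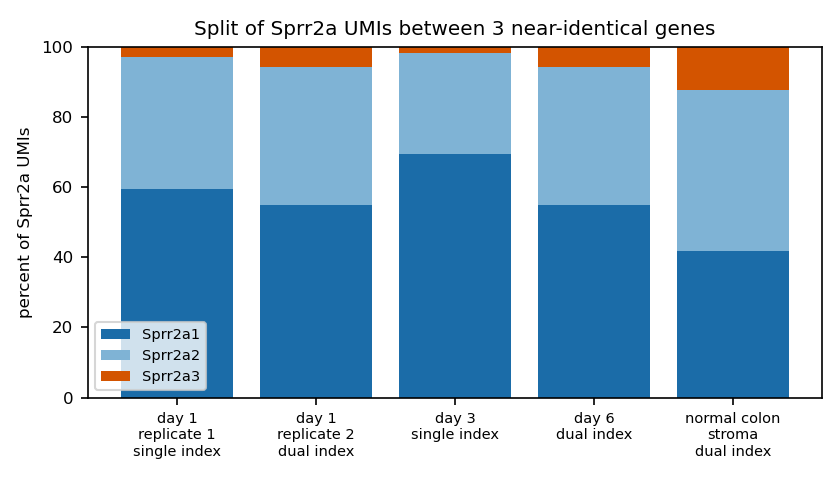
Share of *Sprr2a* UMIs assigned to each of the 3 near-identical genes, in percent (y axis), for each library with its index type (x axis). *Sprr2a3* takes 1.71% to 2.79% in single index and 5.74% to 5.80% in dual index tumor libraries.

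Among the neighbors in the array, *Sprr2d* resembled *Sprr1a*. Squamous cells held 446, 1070.2, 132 and 521 CPM of *Sprr2d*, columnar cells 39.8, 32.2, 75.2 and 71.6 CPM and non-epithelial cells 55.6, 45.4, 527 and 132.0 CPM. Squamous cells were higher than columnar cells in all 4 libraries, with a mean difference of 2.64 ± 1.53 (SD, n = 4), but not higher than non-epithelial cells at day 3. Squamous *Sprr2d* UMIs lay in few cells: 1 cell held 72 of 149 at day 1 replicate 1, 1 held 441 of 1091 at day 1 replicate 2, 1 held 7 of 81 at day 3 and 1 held 360 of 2266 at day 6. Without the highest cell of each library the differences were 2.09, 3.73, 0.58 and 2.33. Of the 336 non-epithelial UMIs at day 3, 281 were in 1 cell of an endothelial-like cluster. In the suprabasal cluster of day 6 *Sprr2d* was at 951 CPM, against 102 CPM in the basal cluster. It has no row in the normal colon table.

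The other *Sprr* genes were low. *Sprr2b* was below the columnar level in squamous cells of every library (8.98, 13.7, 27.6 and 5.28 against 32.6, 31.4, 39.3 and 21.9 CPM). *Sprr2h* was at 50.9, 162, 45.5 and 36.3 CPM in squamous and 33.9, 96.8, 96.1 and 45.0 CPM in columnar cells, with no common direction. *Sprr2k* did not exceed 5 CPM in either class but was lower in squamous cells in all 4 libraries. *Sprr2e*, *Sprr2f*, *Sprr2i* and *Sprr2j-ps* stayed below 15 CPM in both classes, and *Sprr2g* reached 30.4 CPM in squamous cells of day 1 replicate 2. Of 5 such genes with at least 100 counts, 1 was higher and 2 were lower in squamous cells in all 4 libraries, against 14.2% and 25.5% of all genes.

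**Figure D5:**
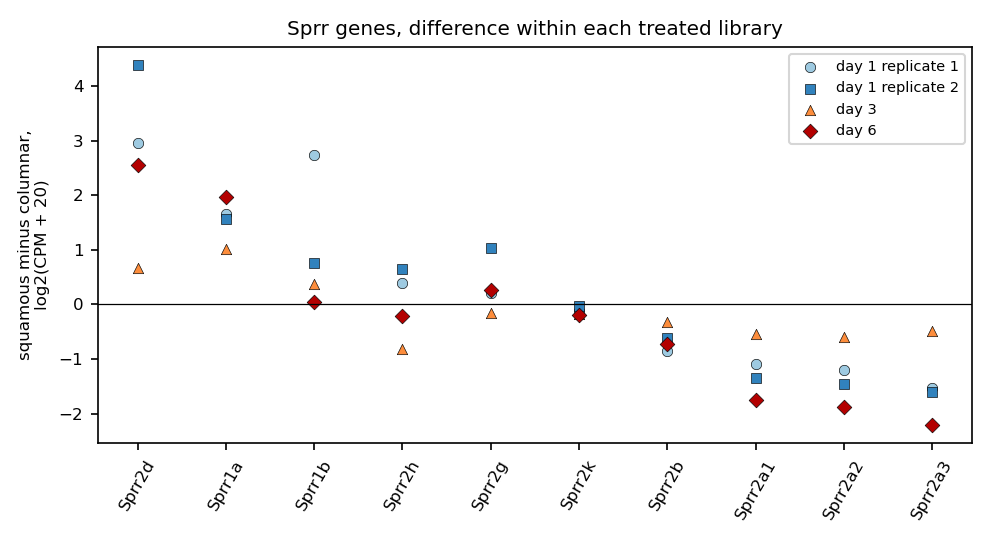
Squamous minus columnar difference in log2(CPM + 20) (y axis) for 10 *Sprr* genes (x axis), with 1 point for each treated library and a line at 0. *Sprr1a*, *Sprr1b* and *Sprr2d* lie above 0 and the 3 *Sprr2a* genes, *Sprr2b* and *Sprr2k* below 0 in all 4 libraries.

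The list for the cornified envelope held 38 genes, among them genes of transglutaminases, proteases and desmosomes. Of the 38, 28 were counted, and the involucrin gene was not. Most of those with at least 100 counts were higher in squamous cells. Of 18 such genes with at least 100 counts, 15 were higher in squamous than in columnar cells in all 4 libraries and 0 were lower, against 14.2% and 25.5% of all genes, with a median difference of 1.67 against −0.06 for all genes. *Anxa1*, an annexin, held 1859, 8751, 860.3 and 4549.9 CPM in squamous cells and 670.2, 1163, 571 and 1151 CPM in columnar cells. *Pkp1*, a desmosome plaque gene, held 593, 509, 607 and 419.9 CPM against 64.8, 79.9, 166 and 64.3 CPM, and *Dmkn*, dermokine, held 1006, 299, 611 and 234 CPM against 28.0, 8.37, 58.8 and 20.5 CPM. *Cstb*, a protease inhibitor, and *Ppl*, the plakin periplakin, were higher by 1.25 ± 0.46 and 1.30 ± 0.83 (SD, n = 4). *Lor*, the loricrin gene, was higher in squamous cells in 2 of 4 libraries, with a mean difference of 0.03 ± 0.25 (SD, n = 4). *Tgm3*, a transglutaminase gene, was also higher in 2 of 4. At day 6 it held 7.35 CPM in squamous and 107 CPM in columnar cells. *Cdsn* was higher in squamous cells in 1 of 4 libraries. Between late and day 1 columnar cells, 4 of the 18 were above and 1 was below, against 11.7% and 39.9% of all genes. EdgeR called 0 of 18 in columnar and 0 of 14 in squamous cells, with medians of 0.69 and 0.10 against 0.02 and 0.03 for all genes.

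Suprabasal keratins had the same order as *Sprr1a*. Of 7 with at least 100 counts, 5 were higher in squamous cells in all 4 libraries and 0 were lower, against 14.2% and 25.5% of all genes, with a median of 3.39. *Krt6a* held 9745, 16000.3, 6895 and 6397 CPM in squamous and 499, 312, 568 and 751 CPM in columnar cells. *Krt13* and *Krt6b* were higher by 3.39 ± 0.79 and 3.98 ± 1.50 (SD, n = 4), while *Krt4*, at 36.3 and 46.1 CPM in squamous and columnar cells of day 1 replicate 2, was higher in 3 of 4 libraries. In columnar cells 6 of 7 were above the day 1 libraries in both late libraries, against 11.7% of all genes, and edgeR called 0 of 6 there and 0 of 7 in squamous cells. Non-epithelial *Krt13* moved alike, at 335 and 73.1 CPM at day 1 and 1215 and 1177 CPM late.

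Regulators of squamous and surface cell fates went both ways. Of 28, 13 were higher and 6 lower in squamous cells in all 4 libraries, against 14.2% and 25.5% of all genes, so the share that was lower was near that of all genes. The median was 0.34. *Klf4*, a factor of surface colonocytes and of the skin barrier, was lower in squamous cells, at 156, 269.7, 135 and 417 CPM against 237, 302, 185 and 1120.4 CPM in columnar cells, which were highest at day 6. *Elf3* and *Klf6* were also lower, by 0.79 ± 0.29 and 0.78 ± 0.77 as means, and *Jund* by 0.51 ± 0.15 (SD, n = 4). *Junb* was higher by 0.44 ± 0.13, and *Klf5* (−0.23 ± 0.27) and *Ehf* (0.35 ± 0.70) had no common direction. EdgeR called 0 of 27 over time in columnar and 0 of 28 in squamous cells.

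Cytokine receptor genes were mostly below 100 CPM in both classes. The list held receptors of the gp130 and IL-1 families together with *Il22ra1* and *Il10rb*, chains of the IL-22 and IL-10 receptors. Of 9, 3 were higher (*Il6ra*, *Osmr* and *Il1rap*) and 1 was lower (*Il10rb*) in squamous cells in all 4 libraries, against 14.2% and 25.5% of all genes, with a median of −0.02. *Osmr* held 35.9, 11.8, 27.6 and 34.0 CPM in squamous and 15.2, 6.55, 3.69 and 14.5 CPM in columnar cells, and *Il10rb* held 44.9, 41.2, 84.6 and 48.0 CPM against 97.4, 80.1, 163 and 118 CPM. *Il6ra* was below 31 CPM in both classes and highest in non-epithelial cells of day 1, at 124 and 136 CPM. *Il6st*, *Il11ra1* and *Il1r1* had no common direction, and edgeR called 0 of 9 over time in columnar and 0 of 6 in squamous cells.

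The genes most like each named gene were found over 40 sums of library and cell type with at least 20 cells, among 13916 genes outside the family, by Pearson's r of log2(CPM + 20). The sums share libraries and free RNA, so r is a description. *Sprr1a* was most like *Anxa8* (0.96), *Gsta4* (0.95), *Krt6a* (0.92), *Krt14* (0.91) and *Krt6b* (0.91). *Sprr1b* was most like *Abca12* (0.92), *Crabp2* (0.81), *Tfap2c* (0.80), *Calca* (0.80) and *Polq* (0.80), on few UMIs. *Sprr2a1* was most like *Cox6b1* (0.94), *S100a14* (0.92), *Pglyrp1* (0.91), *Atp5g3* (0.91) and *Mgst2* (0.91), and *Sprr2a2* like *Lgals4* (0.92), *Misp* (0.92), *Cox6b1* (0.92), *Slc25a5* (0.90) and *S100a14* (0.90). *Sprr2a3* was most like *Lypd8* (0.94), *Sdcbp2* (0.94), *Mgst3* (0.92), *Krt19* (0.91) and *Prss32* (0.91). Among the named genes r was 0.99 for *Sprr2a1* and *Sprr2a2*, 0.78 for *Sprr1a* and *Sprr2a1* and 0.35 for *Sprr1a* and *Sprr1b*.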

How the data were processed

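Single-cell RNA from 4 treated AOM/DSS tumor libraries and 1 normal colon library was deposited as tables of UMI counts per gene and cell. Per the labels and the study's methods, the authors encapsulated cells by inDrop and made the count tables with dropEst against GRCm38. Sequencing was on MGI-Seq for single index and NovaSeq for dual index libraries. The deposited values are raw counts, not normalized. Cells with at least 500 genes and at most 15% mitochondrial counts were kept. Cells were clustered on 2000 variable genes without *Sprr* and list genes, 20 principal components and 20 neighbours (Leiden, resolution 1), separately for treated and normal libraries, and clusters were named from markers: at least 3 markers 2-fold up in 10% of cells and a mean log2 fold of 1, then epithelial clusters by a 1.25-fold excess over non-epithelial cells. Doublets were not removed in the main values; Scrublet called 0 to 4 cells in each treated library and 7 in normal colon, so it did not work in the treated libraries, and the 6% with the highest scores were left out as an alternative.

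Counts were summed per library and class and given as CPM or log2(CPM + 20). Early (day 1) and late (day 3, day 6) sums were tested with edgeR (quasi-likelihood, filterByExpr, Benjamini-Hochberg over all genes tested, threshold 0.05) and DESeq2. The test was tried on simulated counts. Intervals are exact Poisson, 95%, and cover counting error only. For each list the text names the 4 highest genes in each class and for each member its 5 most similar genes. The genes and lists were chosen with earlier results of these data known. Python 3.11.15, scipy 1.17.1, scikit-learn 1.9.0, leidenalg 0.10.2, scanpy 1.11.5, R 4.3.3, edgeR 4.0.16 and DESeq2 1.42.0 were used.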

Additional observations from a re-analysis of the deposited data

Results flagged for a closer look

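*Sprr1a* in columnar cells moved in opposite directions in the 2 library types, by 0.48 on the log2 scale from day 1 to day 3 (single index) and by −0.44 from day 1 to day 6 (dual index). The difference between these was not tested, since each rests on 1 library against 1. The non-epithelial level of *Sprr1a* went from 99.6 to 260.2 CPM in the first pair and from 93.1 to 162 CPM in the second. At day 3, 1 non-epithelial cell held 64 of the 166 UMIs.

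Of the cells without a class name, which entered no comparison, 2 clusters carried *Sprr2a* UMIs above the non-epithelial level of their library. At day 6, an unnamed cluster of 859 cells with a median of 1323 UMIs, led by *Calm4*, *Hist1h2ap* and *Pigr*, held 368 CPM of *Sprr1a* and 41207 CPM of *Sprr2a*. Another unnamed cluster was led by *Gm7808*, *Tuba4a* and *Fam178b*. It held 17980 CPM of *Sprr2a* in 24 cells of day 1 replicate 1 and 30751 CPM in 502 cells of day 3. Its *Sprr1a* at day 3 (231 CPM) was below the non-epithelial 260.2 CPM, where 1 cell held 64 of 166 UMIs. The 79 unnamed cells of day 1 replicate 2 lay below the non-epithelial level for both, at 6336 CPM of *Sprr2a* and 85.3 CPM of *Sprr1a*.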

How the results depend on the processing

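No paired analysis was possible because the replicate numbers do not pair early with late libraries. The library structure, which sets 1 early beside 1 late library, was used as a block instead. As medians over the counted genes, squamous minus columnar was −1.18, and −4.00 with the non-epithelial level subtracted as free RNA (−1.40 to −0.99 leaving out each library). Columnar late minus early was 1.01, and 0.48 with free RNA subtracted and 1.44 without goblet-like and Paneth-like clusters, an alternative chosen after seeing the data (0.16 to 1.68 leaving out each library). Without day 6 it was 0.16 and without day 3 it was 1.68. Day 6 columnar minus normal surface colonocytes was 0.44, and 0.94 at clustering resolution 0.5, 0 with free RNA subtracted and 0.77 with cells thinned to 1000 UMIs. No library could be left out there. These medians enter *Sprr1b* as 0 although it has no row in normal colon, so the 0 is not a measured difference. The measured genes were at 1.80 (*Sprr1a*), 1.01 (*Sprr2a1*), 0.44 (*Sprr2a2*) and −0.34 (*Sprr2a3*) before subtraction. Genes called late against early were 0 in columnar cells with edgeR, 461 with DESeq2, 884 without the filter on low counts, 108 with the library structure block and 0 to 1128 leaving out each library (1128 without day 3, 749 without day 6). In squamous cells they were 0, 17, 76, 7 and 2 to 42 (42 without day 3, 27 without day 1 replicate 1). The cause was not tested. *Sprr1b* in columnar cells, late minus early, turned from −0.02 to 0.057 with thinned cells and to 0.0011 without goblet-like and Paneth-like clusters. *Sprr1a* in day 6 columnar cells minus surface colonocytes turned to −1.28 with free RNA subtracted, where the day 6 level was set to 0. In the same comparison *Sprr2a3* turned to 0.16 at resolution 0.5. *Sprr1a* in squamous cells, late minus early, was 0.01, and −0.36 to 0.40 leaving out each library (−0.31 without day 1 replicate 1, −0.36 without day 6). *Sprr1a*, squamous minus columnar, went from 1.55 to 0.15 without the suprabasal squamous cluster, an alternative chosen after seeing the data, as was leaving out the squamous cell with the most *Sprr1b* (0 genes called). Of 48 alternatives of the main values 27 stayed within the spread or count limit and 21 moved. Of 237 of single genes, 191 kept their direction and call, 35 moved, 5 became stronger and 6 turned.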
